A study of Mus musculus with 90 samples.

Results

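The 8 genes Reg1, Reg3a, Reg3b, Reg3g, Reg4, Lyz1, Ang4 and Retnlb, all part of the intestinal antimicrobial and Reg gene group, were followed through 15 tissues of female mice of the C57BL/6 strain, taken at estrus or at diestrus. They were chosen by Entrez gene ID as 8 of the 20414 genes in the expression matrix: Reg1 (19692), Reg3a (19694), Reg3b (18489), Reg3g (19695), Reg4 (67709), Lyz1 (17110), Ang4 (219033) and Retnlb (57263). All 8 were found. The study sequenced RNA from animals that were 10 weeks old by the sample labels, which name no transgene and no treatment. Phase was read from vaginal smears, and 3 animals per phase gave 3 libraries for each phase of a tissue, making 90. The groups used most here were duodenum in estrus, duodenum in diestrus, stomach in estrus and stomach in diestrus, and the other 13 tissues were aorta, vein, brown adipose tissue (BAT), white adipose tissue (WAT), heart, kidney, liver, skeletal muscle, cerebrum, hypothalamus, ovary, uterus and spleen.

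The epithelium of the small intestine keeps bacteria at a distance with secreted proteins. Paneth cells at the base of the crypts release lysozyme (Lyz1), alpha-defensins (the Defa genes) and the ribonuclease angiogenin 4 (Ang4), while goblet cells release mucins and the resistin-like protein Retnlb. The Reg genes encode small secreted C-type lectins. Reg3g and Reg3b bind bacteria and are made by enterocytes and Paneth cells under the cytokine IL-22, Reg1 and Reg3a were first described in regenerating or inflamed pancreas and gut, and Reg4 marks enteroendocrine and deep crypt secretory cells.

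Levels are given in FPKM (fragments per kilobase, scaled to library size), a unit that allows genes of unlike length to be compared. Read totals are not given in the files used here. Approximated from the smallest steps of short genes, in units of 1e6 reads, they came to 0.0733 for BAT estrus replicate 3, in which 12048 genes were listed at 0, and to 8.38 to 16.7 for the other 89 libraries. The smallest values above 0 of the 8 genes lay between 0.07 and 0.17 FPKM. The libraries labelled duodenum carried the duodenal genes Apoa1, Fabp1 and Alpi in all 6 cases. There were 3 libraries that stood apart. Duodenum estrus replicate 1 held genes of the gastric surface and glands (12 listed genes, summed 74566 FPKM against 4.47 to 30.9 in the other 5 duodenum libraries), with Tff1 at 29618 and Gkn1 at 7108 FPKM, while the acid-pump genes Atp4a and Atp4b stayed at 0.13 and 0.17 FPKM. Spleen estrus replicate 2 held pancreatic acinar genes (24 listed genes, summed 8043 FPKM). Aorta diestrus replicate 3 held airway genes (7 genes, listed after values were seen, summed 3088 FPKM). Neither list was particular to these libraries. In the stomach libraries the acinar list summed to 4921 to 54775 FPKM and the airway list to 77.3 to 431. Values without the 3 libraries that stood apart are given beside the results that they touch most.

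The start regions of 4 of the genes are shown because they make up 2 of the 4 pairs with the highest correlations over the duodenum libraries, Reg3b with Reg3g and Lyz1 with Ang4. Each runs from 250 bases before to 50 bases after the RefSeq start on GRCm38.p6, 5′ to 3′ on the gene's strand. Capitals mark a TATA box (TATAAA) or a STAT-type motif (TTCNNNGAA), searched on both strands, and the Lyz1 window held neither.
Reg3b (chr6:78370635-78370934, plus strand): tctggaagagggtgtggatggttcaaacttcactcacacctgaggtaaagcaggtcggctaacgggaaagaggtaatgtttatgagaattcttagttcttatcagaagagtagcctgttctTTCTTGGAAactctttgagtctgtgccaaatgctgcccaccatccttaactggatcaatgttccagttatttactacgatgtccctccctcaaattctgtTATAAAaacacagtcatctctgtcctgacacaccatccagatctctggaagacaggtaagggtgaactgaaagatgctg
Reg3g (chr6:78468825-78469124, minus strand): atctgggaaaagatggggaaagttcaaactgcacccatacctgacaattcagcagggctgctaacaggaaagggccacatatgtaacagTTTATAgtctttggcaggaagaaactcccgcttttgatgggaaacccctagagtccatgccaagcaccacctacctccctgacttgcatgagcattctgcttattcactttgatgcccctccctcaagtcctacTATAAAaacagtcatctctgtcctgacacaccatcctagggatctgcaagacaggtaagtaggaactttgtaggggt
Lyz1 (chr10:117292819-117293118, minus strand): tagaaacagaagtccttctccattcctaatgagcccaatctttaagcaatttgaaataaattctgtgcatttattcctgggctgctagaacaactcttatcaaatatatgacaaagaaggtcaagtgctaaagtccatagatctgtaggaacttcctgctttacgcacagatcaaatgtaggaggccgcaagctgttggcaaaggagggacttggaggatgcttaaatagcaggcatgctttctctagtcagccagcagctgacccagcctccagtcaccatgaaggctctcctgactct
Ang4 (chr14:51773541-51773840, minus strand): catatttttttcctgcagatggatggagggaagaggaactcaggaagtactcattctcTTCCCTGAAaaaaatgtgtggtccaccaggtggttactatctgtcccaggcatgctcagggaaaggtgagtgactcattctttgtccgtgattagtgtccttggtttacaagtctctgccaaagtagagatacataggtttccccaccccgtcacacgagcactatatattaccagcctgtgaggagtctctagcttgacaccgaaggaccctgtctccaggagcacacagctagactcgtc

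Of the 8 genes, 7 were matched in the RefSeq table. Reg3b, Reg3g and Reg1 held TATAAA on the sense strand with its first base 29, 27 and 30 bases before the start, and the motif occurred on either strand in 13.6% of 32851 start regions of this length. Reg3b and Ang4 held TTCNNNGAA, at 129 and 192 bases before the start, and 8.30% of start regions did. The motif CTTTGAT or CTTTGAA was found in Reg3a and Reg3g (8.65% of all start regions), CAGCTG in Lyz1 (16.3%), and AGATAA or TGATAA in Reg1, Reg3b, Reg4 and Lyz1 (18.6%). In the printed windows, Reg3b and Reg3g were identical in 207 of 304 aligned positions (68.1%). Lyz1 and its neighbour Lyz2, the lysozyme of macrophages, were identical in 249 of 302 (82.5%).

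In sequence order on chromosome 6, Reg3b, Reg3d, Reg3a, Reg2, Reg1 and Reg3g form a cluster, and Lyz1 lies beside Lyz2 on chromosome 10. Coding sequences of the GENCODE principal transcripts were compared, since alike copies can share reads. Lyz1 and Lyz2 matched in 425 of 447 aligned bases (95.1%), and 16.1% of the 50-base windows of the Lyz1 transcript also occurred in Lyz2. Ang4 and Ang5 matched in 88.1% of aligned positions and shared 4.55% of such windows. Reg3b against Reg3g (76.0%), Reg3b against Reg3a (73.8%) and Reg1 against Reg2 (78.7%) shared no window of 50 bases. Levels of Lyz1 and Ang4 are therefore less certain where Lyz2 or Ang5 is the higher copy.

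All 8 genes had their highest tissue mean in duodenum (n = 6 libraries). On the FPKM scale, Reg1 was the most abundant with a mean of 2578 ± 1456 (SD), followed by Reg3b at 1120.3 ± 714, Reg3g at 683 ± 305 and Lyz1 at 678 ± 743. Ang4 reached 75.6 ± 87.0, Reg4 42.7 ± 14.6 and Reg3a 41.6 ± 29.3, and Retnlb stayed at 0.577 ± 0.576. The ranges of Reg3b, Reg3g and Lyz1 overlapped, as did those of Ang4, Reg4 and Reg3a. When the 15 tissue means of a gene were summed, duodenum made up 98.5% for Reg1, 99.5% for Reg3a, 98.8% for Reg3b, 99.2% for Reg4 and 97.5% for Ang4. It made up 90.9% for Reg3g, 68.0% for Lyz1 and 55.4% for Retnlb.

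**Figure D1:**
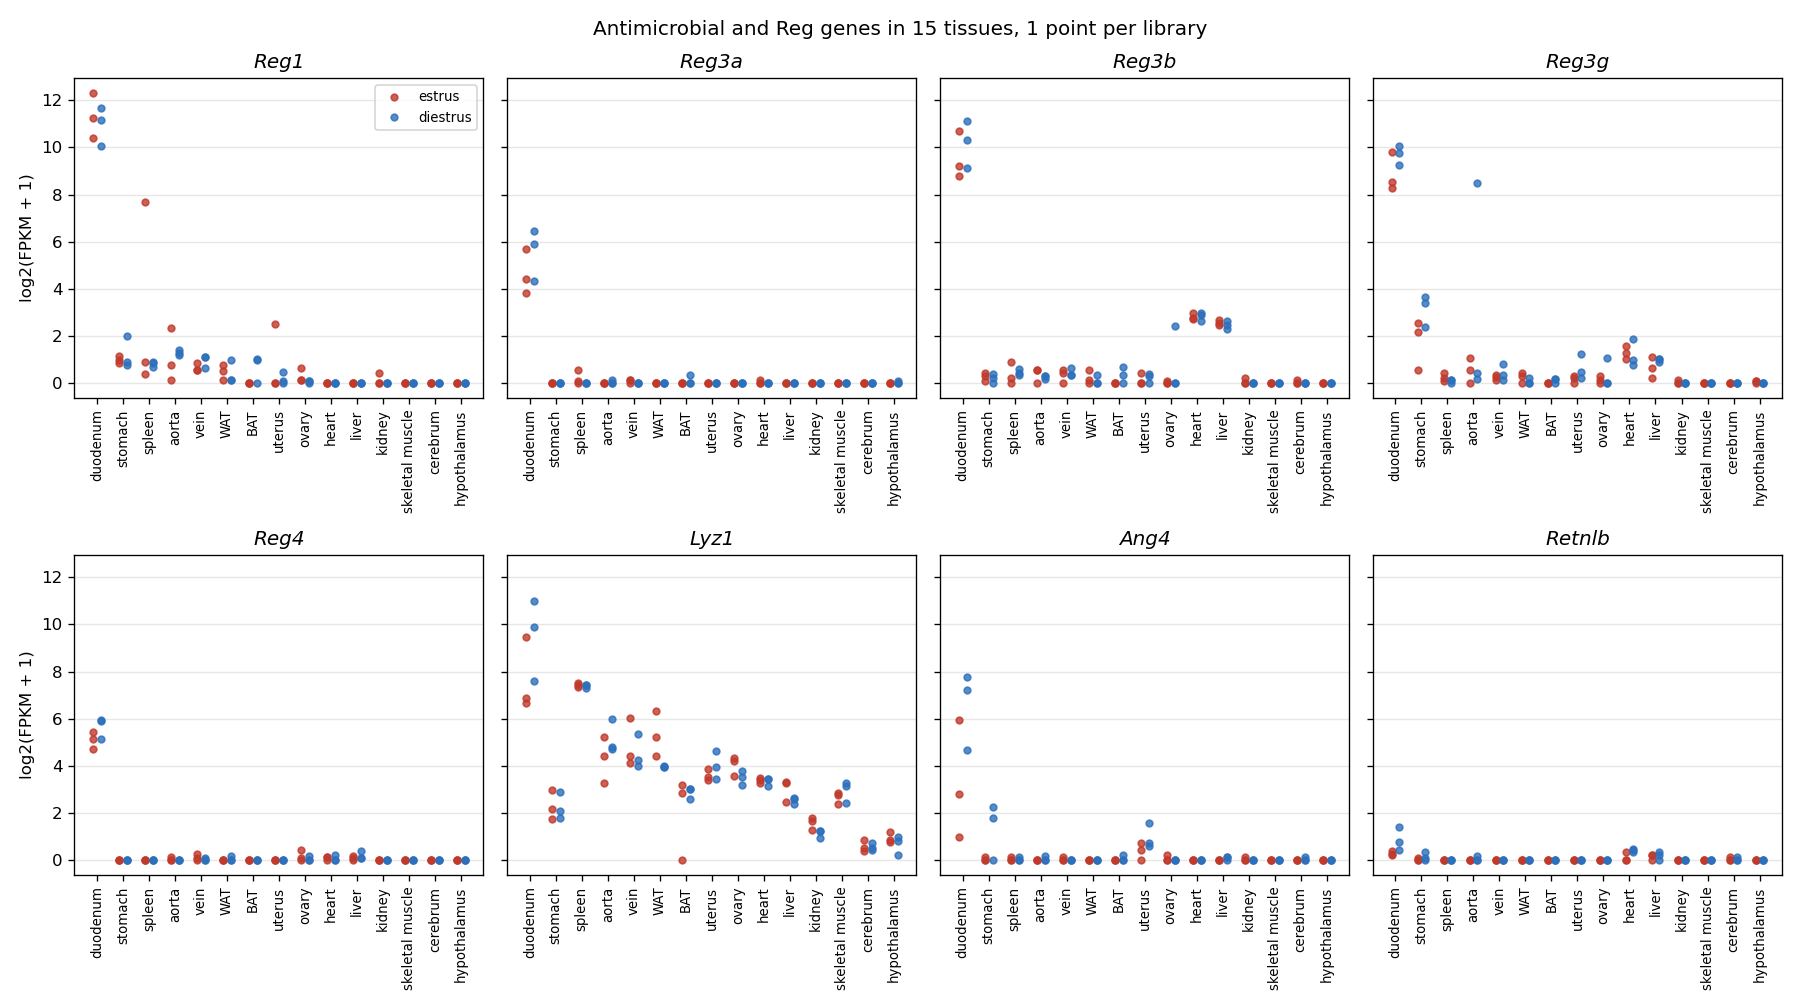
Level of each gene as log2(FPKM + 1) on the y axis against tissue on the x axis, 1 point per library, estrus in red and diestrus in blue, 3 libraries each. Duodenum stands highest for every gene, Lyz1 is also high in spleen, and single libraries of spleen (Reg1, 202 FPKM) and aorta (Reg3g, 354 FPKM) lie far above the rest of their tissue.

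Reg3a and Reg4 were close to a present or absent pattern. Outside duodenum, Reg3a was listed at 0 in 76 of 84 libraries and nowhere passed 0.48 FPKM, and Reg4 was listed at 0 in 68 of 84 and nowhere passed 0.35 FPKM. In duodenum, Reg4 had the narrowest spread of the 8 genes, 2.42 times from the lowest to the highest library, while Reg3a spread 6.6 times. Their patterns over the 90 libraries were most like those of Cdx2, Cdx1 and Gip, which encode the intestinal homeobox factors and the incretin hormone of duodenal K cells (Pearson r of log2(FPKM + 1), 0.990 to 0.991 for Reg3a and 0.994 to 0.995 for Reg4, among 17289 genes). These correlations rest on the contrast of the 6 duodenum libraries with the other 84.

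For Reg3b, the only other tissues above 1 FPKM on average were heart at 6.16 ± 0.65 (SD, n = 6) and liver at 4.73 ± 0.50 (SD, n = 6). The estrus libraries of heart had 6.81, 5.70 and 5.74 FPKM, and the diestrus libraries 6.55, 6.82 and 5.31. In liver they were 4.52, 4.8 and 5.38 in estrus and 4.58, 5.15 and 3.96 in diestrus. Both tissues were steady from library to library, and their ranges overlapped in a single stretch between 5.31 and 5.38 FPKM. Reg3g was lower than Reg3b in the same libraries, at 1.46 ± 0.73 in heart and 0.805 ± 0.377 in liver (SD, n = 6), so the ratio of Reg3b to Reg3g ran from 2.57 to 9.36 in heart and from 0.911 to 2.05 in duodenum. Genes most like Reg3b over the 90 libraries were the goblet cell genes Muc2 (r = 0.978) and Tff3 (r = 0.951), and Myrfl (r = 0.948). For Reg3g they were the Paneth cell lectin Itln1 (r = 0.928), Trim31 (r = 0.913) and the guanylin receptor gene Gucy2c (r = 0.905). These correlations too rest mainly on the contrast of duodenum with the other tissues. Within the 6 duodenum libraries, the 8 goblet cell genes had a median r of -0.143 with Reg3b, and Itln1 had 0.220 with Reg3g. Without duodenum estrus replicate 1 these were -0.456 and -0.204.

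Stomach was the third tissue for Reg3g, at 5.77 ± 4.17 FPKM (SD, n = 6), and aorta the second at 59.4 ± 144 only through diestrus replicate 3. In that library Reg3g stood at 354 FPKM, inside the duodenal range, against 0 to 1.12 in the other 5. The airway genes Scgb1a1 (1047 FPKM against 0 to 3.16) and Bpifa1 (696 FPKM against 0 to 0.32) were high in the same library. All 7 listed airway genes were above the other 5 libraries there. They were listed after values were seen, so nothing is read from that count. Their part in the Reg3g value was not tested. Without the 3 libraries that stood apart, duodenum made up 98.7% of the summed means of Reg3g.

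For Reg1, the second tissue was spleen at 34.3 ± 82.2 FPKM (SD, n = 6), again through 1 library. Spleen estrus replicate 2 had 202 FPKM and the other 5 had 0.33 to 0.88. The same library held the pancreatic neighbours Reg2 (19.2 FPKM) and Reg3d (5.28 FPKM), both listed at 0 in the other 5, and Pnlip (742 FPKM against 0 to 0.98) and Cpa1 (359 FPKM against 0 to 0.53). None of the 24 acinar genes was listed at 0 there. Reg3b (0.88 FPKM) and Reg3g (0.34 FPKM) stayed low in it, and the part of the acinar genes in the Reg1 value was not tested. In uterus estrus replicate 3, Reg1 stood at 4.78 FPKM. Over the 90 libraries Reg1 was most like Apol10a (r = 0.957), the brush border phosphatase gene Alpi (r = 0.957) and the membrane mucin gene Muc13 (r = 0.956). These values, too, rest mainly on the contrast of duodenum with the other tissues.

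Lyz1 was the most widely detected of the genes, averaging 1 FPKM or more in 13 of 15 tissues. Spleen had 169 ± 8.83 FPKM (SD, n = 6; 156 to 181), inside the duodenal range of 99.5 to 2023, and no other neighbour in the order was separated from the next by its range except spleen from WAT (14.5 to 80.2 FPKM). In each of the other 14 tissues Lyz1 lay below Lyz2 in all 6 libraries. The ratio of Lyz1 to Lyz2 was 0.127 to 0.143 in spleen, 0.0738 to 0.105 in heart, 0.0787 to 0.188 in stomach and 0.135 to 0.208 in WAT. In duodenum it ran from 0.618 to 23.8, and Lyz1 exceeded Lyz2 in 5 of 6 libraries. Lyz2 itself was 91.2 ± 48.4 FPKM in duodenum and 33.5 ± 12.7 in stomach (SD, n = 6).

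**Figure D2:**
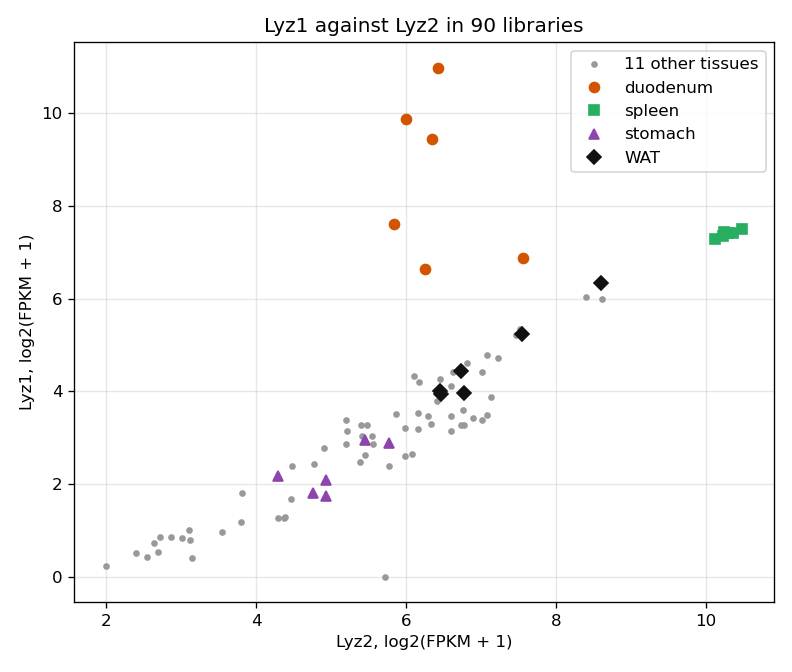
Lyz1 on the y axis against Lyz2 on the x axis, both as log2(FPKM + 1), 1 point per library. Outside duodenum the libraries follow 1 band with Lyz1 below Lyz2, and the 6 duodenum libraries lie above that band, at 99.5 to 2023 FPKM of Lyz1.

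Within WAT both lysozymes were highest in estrus replicates 1 and 3. Lyz1 reached 80.2, 20.6 and 36.7 FPKM in the estrus libraries and 14.5, 15.1 and 14.7 in the diestrus libraries, and Lyz2 was 385, 105 and 186 in estrus and 87.6, 86.6 and 108 in diestrus. All 3 estrus values of Lyz1 lay above the diestrus values, and 12.0% of the 11952 genes tested in WAT did not overlap between phases. The log2 fold change was 1.36 (SE 0.42), with a limma adjusted p of 0.791.

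Duodenum was then compared with stomach over 12 libraries, a comparison of 2 neighbouring segments of the gut. In a bulk sample, fewer cells of a type and less RNA per cell cannot be told apart. Of the 8 genes, 7 averaged 1 FPKM or more and were tested, Retnlb was not, and all 7 were called higher in duodenum, as were 12.1% of the 12990 genes tested. Reg3a, Reg3b and Reg4 averaged under 1 FPKM in stomach and entered the test only through duodenum, so the direction of their calls was fixed by the filter, and nothing is read from the count of 7. Genes were called where limma gave an adjusted p no higher than 0.05 and log2(FPKM + 1) differed by 1 or more. For 6 of the 7 the lowest duodenum library lay above the highest stomach library, as for 16.4% of all genes tested. Ang4 was the exception.

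Reg1 in stomach was 0.79, 1.25 and 1.01 FPKM at estrus and 0.88, 0.71 and 2.99 at diestrus. In duodenum it was 2449.8, 5069 and 1352 in estrus and 2262, 3271 and 1063 in diestrus. Duodenum exceeded stomach by 10.02 on the log2 scale (SE 0.36, limma adjusted p = 1.52e-09). Reg3b was 0 to 0.34 FPKM in stomach and 596, 1678 and 444 in duodenum in estrus and 2197, 549.9 and 1256 in diestrus. Its difference was 9.63 on the log2 scale (SE 0.37), without a p-value since Reg3b entered the test only through duodenum. The pseudocount sets the order of these 2 differences, since with 0.1 in place of 1 they were 10.85 for Reg1 and 11.83 for Reg3b.

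Reg3g and Lyz1 had the highest means of the 8 genes in stomach, with overlapping ranges. Reg3g was 4.95, 3.48 and 0.50 FPKM at estrus and 4.27, 9.69 and 11.7 in diestrus there, against 373, 885 and 307 in estrus and 1070.2, 604 and 860.4 in diestrus in duodenum. Duodenum exceeded stomach by 6.81 on the log2 scale (SE 0.39, limma adjusted p = 6.75e-08). Reg3a was listed at 0 in all 6 stomach libraries and was 13.3, 20.3 and 50.04 FPKM in duodenum in estrus and 87.9, 18.9 and 58.95 in diestrus. Reg4 was likewise listed at 0 in all 6 stomach libraries, and was 25.2, 34.0 and 41.8 FPKM in duodenum in estrus and 60.9, 59.5 and 34.6 in diestrus. No fold or p-value is given for these 2 genes, since their stomach values were 0 and they entered the test only through duodenum.

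For Lyz1, stomach had 6.78, 2.33 and 3.52 FPKM at estrus and 6.34, 2.50 and 3.26 in diestrus, and duodenum had 116, 99.5 and 701 in estrus and 937, 2023 and 193 in diestrus. Duodenum exceeded stomach by 6.30 on the log2 scale (SE 0.65, limma adjusted p = 1.21e-05). Ang4 had the widest spread of all. Its duodenum values were 0.99, 5.96 and 59.9 FPKM at estrus and 147, 215 and 24.5 in diestrus, a range of 217 times. Its stomach values were 0, 0 and 0.09 in estrus and 0, 3.74 and 2.42 in diestrus, so the lowest duodenum library, estrus replicate 1, lay below 2 stomach libraries. Those 2 stomach libraries also held Ang5 (9.69 and 4.47 FPKM) and Ang6 (1.39 and 0.56 FPKM), listed at 0 in the other 4. The log2 fold change of Ang4 was 4.20 (SE 0.83, limma adjusted p = 0.00137), and 4.81 (SE 0.69, limma adjusted p = 0.000155) without duodenum estrus replicate 1. Without that library the other 6 tested genes were also called, with log2 fold changes of 10.01 for Reg1, 9.75 for Reg3b, 6.85 for Reg3g and 6.58 for Lyz1.

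Retnlb stayed low in every library, at no more than 1.69 FPKM. It was 0.32, 0.22 and 0.17 FPKM in duodenum in estrus, 1.69, 0.36 and 0.70 in diestrus, and 0 to 0.26 in stomach. It was listed at 0 in 70 of 90 libraries. Its duodenal range overlapped those of 3 tissues, heart, liver and stomach.

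Other gene lists placed these values in context. The 15 Paneth cell genes summed to 0.05 to 1.25 FPKM in stomach and entered the test only through duodenum, so their 15 calls were fixed in direction. They included Defa17 at 976 ± 1123 FPKM and Defa24 at 666 ± 748 (SD, n = 6), both listed at 0 in stomach. All 12 enterocyte genes were called higher (median 6.89), as were 6 of 8 goblet cell genes, and the other 2, Agr2 and Spdef, were called lower. Of the 12990 genes tested, 1575 were called higher and 1560 lower. Only 8 of the 12 enterocyte and 4 of the 8 goblet cell genes passed the filter in stomach alone. The rest entered only through duodenum, so their direction was fixed. Of 24 genes of IL-22 and IL-17 signals and of other cytokine and microbe-sensing pathways, 19 were tested, 4 were called higher in duodenum and 2 lower. The higher ones included the receptor genes Il22ra1 (log2 fold change 2.42) and Il10rb (1.43), and also Il22ra2 (1.77). The lower ones were the alarmin Il33 (-2.71) and the lipopolysaccharide receptor Tlr4 (-2.31). Of the 24 genes, 18 passed the filter in duodenum alone and 18 in stomach alone. Any that entered only through 1 of these tissues had its direction fixed. Without duodenum estrus replicate 1, 3 were called higher and 2 lower. The cytokines themselves were barely seen, with Il22 at 0 to 0.07 FPKM in duodenum and 0 to 0.11 in stomach, and Il17a at 0 to 0.16 and 0 to 0.05. Among 20 other mucosal defence genes, 14 were tested, 5 were higher and 7 lower, and 5 and 6 without duodenum estrus replicate 1. Of this list 12 genes passed the filter in duodenum alone and 11 in stomach alone. Those that entered only through 1 of these tissues had their direction fixed, so nothing is read from these counts. All 12 gastric epithelium genes were called lower in duodenum, with a median log2 fold change of -9.89, and -10.7 without duodenum estrus replicate 1. Only 8 of these 12 passed the filter in duodenum alone, and 4 without duodenum estrus replicate 1. The rest entered only through stomach, so their direction was fixed.

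Of 10 paralogs of the 8 genes, 5 were tested. Lyz2 was called higher in duodenum (log2 fold change 1.38, SE 0.31, limma adjusted p = 0.00301) and Retnla lower (-1.95, SE 0.44). Retnla averaged 0.217 FPKM in duodenum and 4.92 in stomach and entered the test only through stomach. Its direction was therefore fixed, and no p-value is given for it. Ang, the general angiogenin gene, was 16.4 ± 6.73 FPKM in duodenum and 15.4 ± 6.19 in stomach (SD, n = 6). The chromosome 6 neighbours Reg2 (0 to 0.55 FPKM) and Reg3d (0.25 to 1.80 FPKM) stayed low in duodenum beside Reg1 and Reg3b.

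The question of the study was how the phases differ, and in duodenum none of the 7 tested genes was called between estrus and diestrus by limma. No gene of 12410 was called in either direction (0.0%), and 1677 genes had an unadjusted p under 0.05. Estrus and diestrus libraries overlapped for all 7 genes, while 26.6% of all genes tested did not overlap. Reg1 had a higher mean in estrus and the other 6 a lower one. The median log2 fold change of the 7 genes was -0.82 and that of all genes tested -0.16, and without duodenum estrus replicate 1 these were -0.52 and -0.26.

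**Figure D3:**
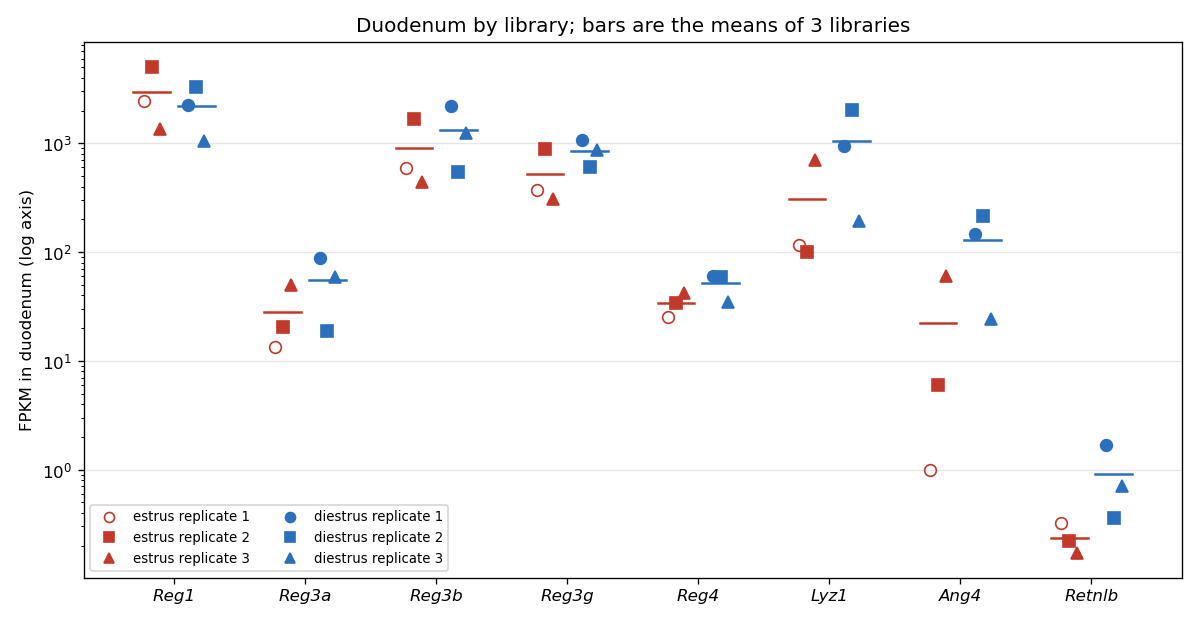
FPKM on a log axis for each gene in the 6 duodenum libraries, estrus in red and diestrus in blue, with marker shape for the replicate number, the open circle for estrus replicate 1 and a bar at the mean of 3 libraries. The phases overlap for every tested gene, and Ang4 spreads from 0.99 to 215 FPKM.

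Ang4 differed most between the means, at 22.3 FPKM in estrus against 129 in diestrus, with a log2 fold change of -3.31 (95% interval -6.49 to -0.12, limma adjusted p = 0.368). Lyz1 averaged 305 FPKM in estrus against 1051 in diestrus, with a log2 fold change of -1.83 (-4.33 to 0.67, limma adjusted p = 0.433), which ran from -2.77 without diestrus replicate 3 to -1.08 without diestrus replicate 2. When all 90 libraries entered 1 limma fit, which shares 1 estimate of the spread over the tissues, both were called lower in estrus, Ang4 with an adjusted p of 1.12e-06 and Lyz1 with 0.0169. That fit called 255 genes higher and 288 lower in estrus in duodenum. In fits of single tissues, the SE of Ang4 was 1.34 in duodenum and 0.58 in stomach, the only other tissue where it was tested. That of Lyz1 was 1.05 in duodenum and at most 0.85 in the other tissues tested. The shared estimate thus lay below the spread of the duodenum libraries, and the p-values of that fit do not measure this spread. Without duodenum estrus replicate 1, the lowest library for Ang4, the 6-library fit gave -2.18 for Ang4 (-5.02 to 0.65, limma adjusted p = 0.219).

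The Reg genes had smaller differences. The log2 fold change of Reg3a was -0.92 (95% interval -2.50 to 0.65), that of Reg3b -0.59 (-2.19 to 1.01), that of Reg3g -0.82 (-1.89 to 0.26), that of Reg4 -0.59 (-1.27 to 0.09) and that of Reg1 0.36 (-1.14 to 1.87). Their limma adjusted p-values ran from 0.387 to 0.799. As libraries were left out one at a time, Reg3a ran from -1.55 to -0.47 and Reg3b from -1.16 to -0.12, both nearest 0 without diestrus replicate 1. Intervals of this width left room for a change of 1 log2 unit in at least 1 direction for each of them. For Retnlb, which was not tested, the 3 estrus values (0.17 to 0.32 FPKM) lay below the 3 diestrus values (0.36 to 1.69 FPKM). The estrus values were near the smallest values above 0. Of the genes tested in duodenum, 26.6% likewise did not overlap between phases, so nothing is read from this.

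**Figure D4:**
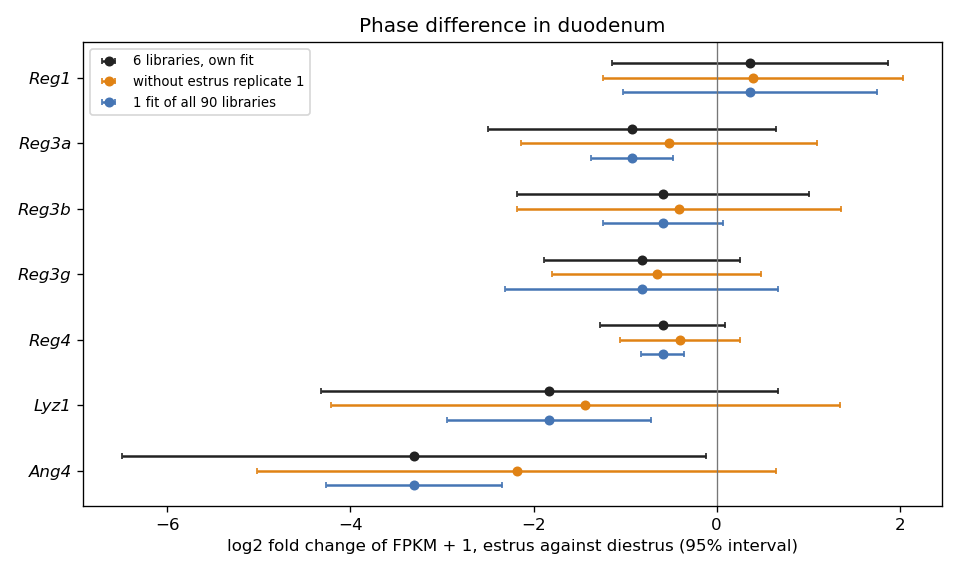
Log2 fold change of FPKM + 1, estrus against diestrus in duodenum, on the x axis for the 7 tested genes, with 95% intervals, from the 6 duodenum libraries (black), without estrus replicate 1 (orange) and from 1 fit of all 90 libraries (blue). The intervals are widest for Ang4 and Lyz1, and in the fit of all libraries these 2 lie wholly below -0.71.

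Libraries of the same phase differed widely, and the genes did not all order them alike. Lyz1, Ang4 and Reg4 were high in diestrus replicates 1 and 2 and in estrus replicate 3. Reg3b and Reg3g were highest in diestrus replicate 1, estrus replicate 2 and diestrus replicate 3. Reg1 followed neither order and was highest in estrus replicate 2 and diestrus replicate 2.

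The 21 pairs of the 7 genes were correlated over the 6 duodenum libraries on the log2(FPKM + 1) scale, with two-sided exact permutation tests. Ang4 with Reg4 gave r = 0.958 (exact p = 0.00417, adjusted 0.0875; rho = 0.943, exact p = 0.0167, adjusted 0.117), and 0.944 without the 2 libraries farthest from the median. Lyz1 with Ang4 gave r = 0.932 (exact p = 0.00972, adjusted 0.102; rho = 0.943, exact p = 0.0167, adjusted 0.117), and 0.921 without the farthest 2. For Reg4 with Lyz1, r was 0.906 (exact p = 0.0153, adjusted 0.102; rho = 0.886, exact p = 0.0333, adjusted 0.175), and 0.757 without the farthest 2. Reg3b with Reg3g gave r = 0.915 (exact p = 0.0194, adjusted 0.102; rho = 0.943, exact p = 0.0167, adjusted 0.117), and 0.828 without the farthest 2. None of the 21 pairs passed 0.05 after adjustment. Of the 6 pairs across these 2 sets, r ran from -0.249 (Reg3b with Lyz1) to 0.364 (Reg3g with Reg4), and from -0.487 (Reg3b with Lyz1) to 0.052 (Reg3g with Reg4) without duodenum estrus replicate 1. The coefficients of these 4 close pairs were 0.905 to 0.977 without duodenum estrus replicate 1. Each phase alone held 3 libraries, too few for a coefficient within phase.

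The Paneth cell list ordered the libraries as Ang4 did. Its 15 genes summed to 133, 339.6 and 3385 FPKM at estrus and 4550.1, 8075 and 786 in diestrus, against 0.05 to 1.25 in stomach. All 15 genes had r above 0 with Ang4 (median 0.951), Lyz1 (median 0.949) and Reg4 (median 0.930) over the 6 libraries. With Reg3a all 15 were also above 0, with a median of 0.499, which was 0.174 without duodenum estrus replicate 1. With Reg3g the median was 0.139, with Reg3b -0.083 and with Reg1 -0.160. Without duodenum estrus replicate 1 the median with Reg3g changed sign, to -0.288. The goblet cell list (8 genes) had medians of 0.635 with Ang4 and -0.143 with Reg3b, and the enterocyte list (12 genes) had medians of 0.314 and 0.191. Without duodenum estrus replicate 1 the enterocyte medians were -0.745 with Ang4 and -0.157 with Reg3b, and the Paneth cell medians were 0.962 with Ang4 and -0.395 with Reg3b. These coefficients share the 6 libraries and are given as a description. Over all 90 libraries, the genes most like Ang4 were the alpha-defensins Defa26 (r = 0.962), Defa36 (r = 0.958) and Defa20 (r = 0.957), and those most like Lyz1 were Gvin1 (r = 0.864), Tnfrsf14 (r = 0.850) and Tep1 (r = 0.849). The part of Paneth cell content in the phase values of Ang4 and Lyz1 was not tested. None of the 15 Paneth genes was called between phases, 14 of 15 were lower in estrus, and their median log2 fold change was -2.41, or -1.60 without duodenum estrus replicate 1.

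**Figure D5:**
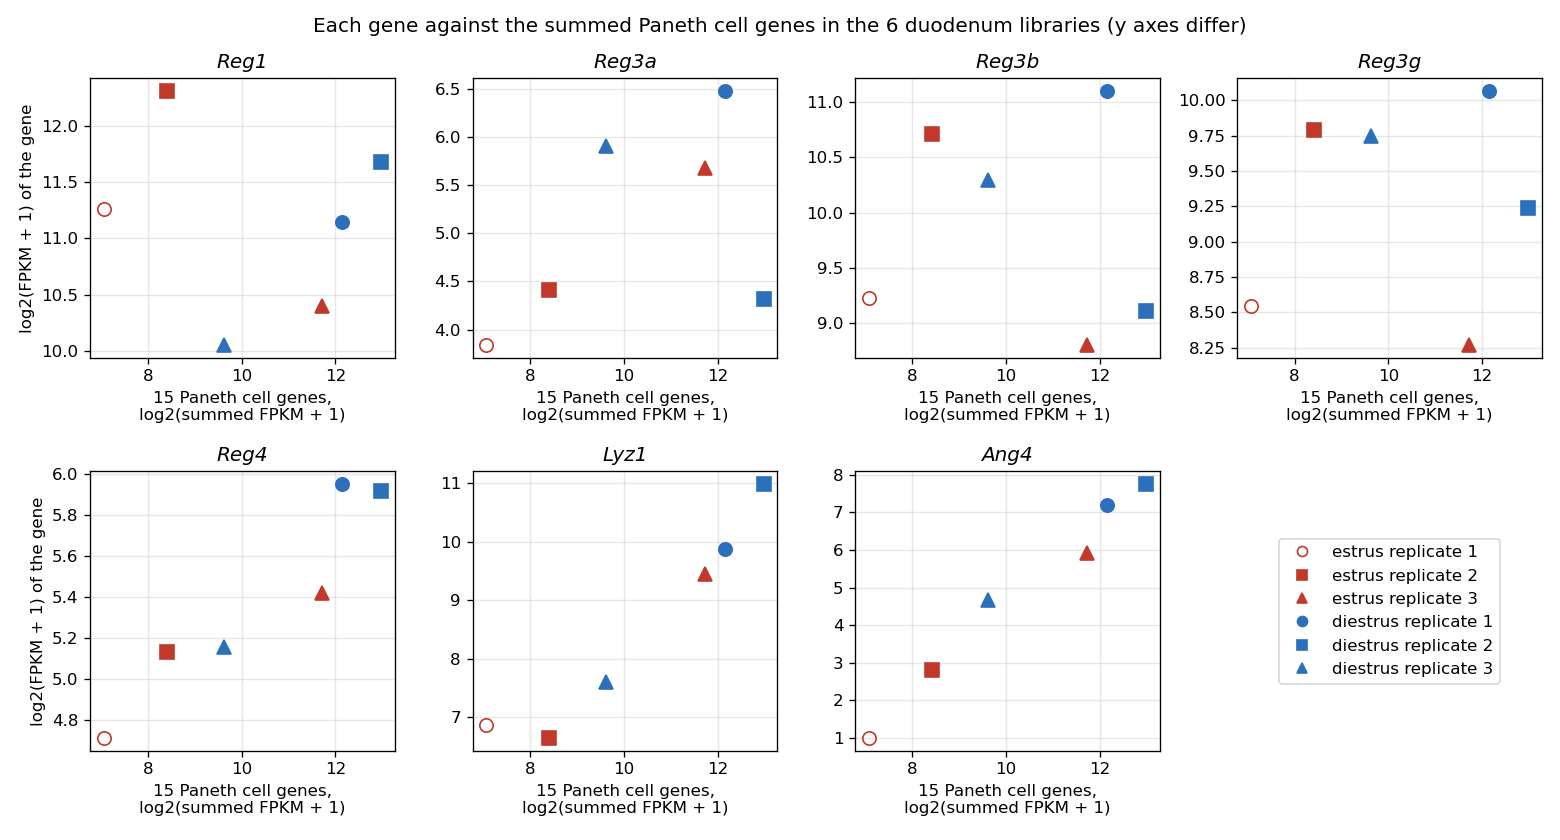
Log2(FPKM + 1) of each gene on the y axis against the log2 of the summed FPKM + 1 of 15 Paneth cell genes on the x axis in the 6 duodenum libraries, with colour for phase, shape for replicate number and the open circle for estrus replicate 1. Ang4 rises with the sum at every step and Lyz1 and Reg4 nearly so, while Reg1, Reg3a, Reg3b and Reg3g do not follow it step by step.

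In stomach, 4 of the 8 genes passed the filter and none was called between the phases by limma. None of the 12670 genes tested was called (0.0%), and 935 had an unadjusted p under 0.05. Reg3g averaged 2.98 FPKM in estrus and 8.57 in diestrus, which gave a log2 fold change of -1.39 (95% interval -2.85 to 0.07, limma adjusted p = 0.676). That of Ang4 was -1.30 (-2.72 to 0.13). Ang4 averaged 0.03 FPKM in estrus and 2.05 in diestrus, and passed the filter only through diestrus. Its direction was therefore fixed, and no p-value is given for it. The log2 fold change of Reg1 was -0.22 (-1.09 to 0.65) and that of Lyz1 0.03 (-0.96 to 1.02). None of the 4 genes was free of overlap between phases, as 13.7% of all genes tested were.

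The difference of the phase effect between duodenum and stomach was tested as an interaction. None of the 7 genes was called (0.0077% of 12990 genes were, and 1449 had an unadjusted p under 0.05). The largest estimates were -2.01 for Ang4 (95% interval -5.60 to 1.58) and -1.86 for Lyz1 (-4.62 to 0.89), with limma adjusted p-values of 0.593 and 0.544.

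In the other 13 tissues, 17 tests of a member were possible in 11 tissues and none was called, against 0.00125% of 160389 tests of all genes. Of those tests, 11934 had an unadjusted p under 0.05, as had 2 of the 17. These were Lyz1 in WAT, described above, and Lyz1 in kidney (log2 fold change 0.42, SE 0.18, limma adjusted p = 1.00). The log2 fold change of Reg3b was -0.03 in heart (95% interval -0.28 to 0.23, limma adjusted p = 0.977) and 0.09 in liver (-0.17 to 0.34, limma adjusted p = 0.899). Reg1 in spleen (2.18, SE 1.73) and Reg3g in aorta (-2.48, SE 2.21) had the widest intervals. Without spleen estrus replicate 2, Reg1 averaged 0.694 FPKM in spleen, and without aorta diestrus replicate 3, Reg3g averaged 0.41 FPKM in aorta, both under the filter of 1 FPKM and so not tested.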

How the data were processed

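RNA was sequenced from 15 tissues of female mice in estrus and diestrus, 3 libraries for each phase of a tissue, making 90. The labels give an age of 10 weeks, and the published methods give another age. The authors filtered reads with SOAPnuke, aligned them with Bowtie2 2.2.5 and estimated levels with RSEM 1.2.8 on GRCm38.p5, by the submitters' processing notes, and deposited FPKM values for 20414 genes, with no column of a comparison of their own. Gene symbols came from RefSeq for 20265 Entrez IDs.

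From there, genes averaging 1 FPKM or more in the compared libraries were tested on log2(FPKM + 1) with limma 3.58.1 in R 4.3.3, with Benjamini-Hochberg adjustment over all genes tested. Calls required a log2 difference of 1 or more in size with adjusted p no higher than 0.05. The study used a test on counts, which FPKM values do not allow. The fold change on this scale understates that of low genes. All 8 members were named, with the 3 genes most correlated with each member and the leading genes of each list. The members and the lists were chosen with earlier results of these data known, and the airway list after values were seen. Correlations, exact permutation tests and figures used Python 3.11.15, numpy 2.4.6, pandas 2.3.3, scipy 1.17.1 and matplotlib 3.10.9. The fits were tested on simulated data with 200 genes changed, under normal noise that was independent between genes and libraries. At a change of 1.5 log2 units, 91.5% were recovered for duodenum against stomach, 48.5% for phase in duodenum and 70.5% for phase in stomach. At 3 log2 units these were 97%, 89% and 90.5%. False calls numbered 2, 6 and 2 at 1.5 log2 units and 0, 8 and 5 at 3. The real libraries include 1 that stood apart in duodenum, and the rates are averages over genes. They do not give the rate for a single gene of wide spread such as Ang4 or Lyz1. Labels do not tie libraries of different tissues to an animal, so p-values measure the spread between these libraries. Depth was approximated from 933 genes of 300 to 1100 bases and had a median of 14.8 in units of 1e6 reads. Alternatives were another pseudocount, no filter, other scalings, 1 fit of all libraries, no intensity trend, a replicate block and leaving out each duodenum and stomach library. The value of 1 listed gene is not reported here.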

Additional observations from a re-analysis of the deposited data

Results flagged for a closer look

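Of 28 sets of 6 libraries (a gene in a tissue), 5 held a library whose gap to its nearest neighbour passed Dixon's 95% limit, and chance flags about 1 in 20 sets, or 1.4 here. Reg1 in spleen stood at 202.1 FPKM in estrus replicate 2, against 0.33 to 0.88 in the other 5. Reg3g in aorta stood at 354.3 FPKM in diestrus replicate 3, against 0 to 1.12. Reg1 in stomach stood at 2.99 FPKM in diestrus replicate 3. Lyz1 in WAT stood at 80.21 FPKM in estrus replicate 1, where Lyz2 was also highest. Lyz1 in uterus stood at 23.58 FPKM in diestrus replicate 3.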

How the results depend on the processing

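In 100 repeats, of the number of genes called in the 5 comparisons or of the share of a gene's summed tissue means in duodenum, 99 kept the count or stayed within 1 SD of the share. The exception was phase in duodenum, where 2 genes, Lyz1 and Ang4, were called when 1 fit held all 90 libraries. The SD came from the spread of the duodenum libraries and was wide, for Ang4 87.0 FPKM at a mean of 75.6. Many shares could therefore hardly leave it, and nothing is read from how many stayed. Leaving out each duodenum and stomach library in turn gave 7 to 7 genes called for duodenum against stomach and 0 to 0 for phase in these 2 tissues. Reg3a, Reg3b and Reg4 entered the test of duodenum against stomach only through duodenum. Nothing is therefore read from how often its count stayed at 7. In the other tissues BAT estrus replicate 3 and, chosen after seeing the data, spleen estrus replicate 2 and aorta diestrus replicate 3 were left out, with 0 called. For single genes, 533 values kept direction and call, 2 passed the threshold (those above) and 8 changed sign, none of them called. The log2 fold change of Reg1 between phases in duodenum ran from -0.13 to 0.83 as libraries were left out, at -0.13 without estrus replicate 2 and -0.09 without diestrus replicate 3. For Lyz1 between phases in stomach the range was -0.30 to 0.34, with -0.30 without estrus replicate 1, -0.19 without diestrus replicate 2, -0.05 without diestrus replicate 3, and -0.030 after rescaling every library to the same sum. The interaction of Reg3g ran from -0.022 to 0.97, the lowest without stomach estrus replicate 3. Lyz1 in BAT was 0.14 without the shallow estrus replicate 3. The cause of these changes was not tested. Upper quartile scaling moved the median of all genes in the duodenum phase comparison from -0.16 to -0.03.

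When replicate number entered as a block, limma called 7 genes for duodenum against stomach and 0 for phase. Here too nothing is read from the count of 7, since the filter fixed the direction of part of it. Same-numbered libraries of duodenum and stomach correlated at -0.10 to 0.10 in their deviations, so the numbers were not shown to pair. Values under about 0.2 FPKM were near the smallest step the libraries could show.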
